A study of Gasterosteus aculeatus with 53 samples.

Results

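Females that had been courted by a male were set against females that had met another female, over 3 populations of threespine stickleback (Gasterosteus aculeatus). The comparison took every library labelled as conspecific or heterospecific courtship (33 fish, 16 and 17 in the same order) and every social control library (18 fish), 51 of the 53 labelled libraries. The other 2, from females courted by a conspecific male (Paxton benthic trial 83 and Priest limnetic trial 9), were left out, taken here as the pair that the study suspected of a swap. The courted females were 10 Paxton benthic, 12 Paxton limnetic and 11 Priest limnetic fish, and each population gave 6 social controls.

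All subjects were females carrying ripe eggs, taken from 2 Canadian lakes, Paxton and Priest, whose bottom-feeding (benthic) and open-water (limnetic) species seldom interbreed. A courted female had been released in the nesting aquarium of a male of her own lake, either of her species (conspecific) or of the other one (heterospecific). A social control female had met a female of her own lake and species that was not in reproductive condition and came from her home aquarium. The sex of the partner, courtship, the partner's reproductive state and its familiarity therefore changed together between the groups and cannot be told apart. Brains were taken after 20 min or at spawning, whichever came first. Time with the partner could therefore be shorter in females that spawned, and the labels do not say which did. Each library held the polyadenylated RNA of 1 whole brain, in which fewer cells of a type and less RNA per cell cannot be told apart.

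A male stickleback courts with a zigzag dance and leads a ripe female to his nest, and she decides within minutes whether to follow and spawn. In vertebrate brains, social signals first switch on immediate early genes such as fos and egr1, in the neurons that respond, and later change the transcripts of hormone receptors, neuropeptides and synaptic proteins. In a whole-brain extract, a response of a few neurons is mixed with the transcripts of all other cells. The comparison asks which transcripts differ with courtship whatever the species of the male and the population of the female. The count table gives Ensembl identifiers without gene names, and 0 of 22456 identifiers matched the RefSeq gene table at hand, so immediate early genes, hormone pathways and cell type markers of the brain were not analysed here, and genes are given by identifier only.

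No gene passed the test. Of 19938 genes, 0 (0%) had an adjusted p-value under 0.1 for courtship in edgeR's quasi-likelihood test with Benjamini-Hochberg adjustment, and the smallest adjusted p-value was 0.811. The model held population and trial number beside courtship. At an unadjusted p-value under 0.05 there were 462 genes, 2.32% of those tested, where evenly spread p-values give 5%, and 70 genes (0.351%) were under 0.01. The 462 genes were split almost evenly, with 230 higher and 232 lower in courted females. DESeq2, run without the filter on 21796 genes, called 0 genes as well. It had 600 genes (2.75%) under an unadjusted 0.05 and a smallest adjusted p-value of 0.198. Weighted limma-voom, run on the 19938 filtered genes, called 0 genes, with 609 and 0.237. When the filter on low counts was dropped, edgeR called 37 genes, 36 of them lower in courted females, and 33 of the 37 had their highest value in 1 library, the Priest limnetic social control of trial 45. Without that library and without the filter, 0 genes were called, with 589 under an unadjusted 0.05 and a smallest adjusted p-value of 0.226.

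The other terms of the same model gave many calls. Trial number was associated with 3960 genes (19.9%) at an adjusted p-value under 0.1 in edgeR's test, 2193 with higher and 1767 with lower values in later-numbered trials. Population was associated with 9013 genes (45.2%). The share of genes called for courtship (0%) is read against these values, which come from the same 51 libraries, filter and threshold. Trial number is the running number in the labels, which do not say whether it stands for a date.

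**Figure D1:**
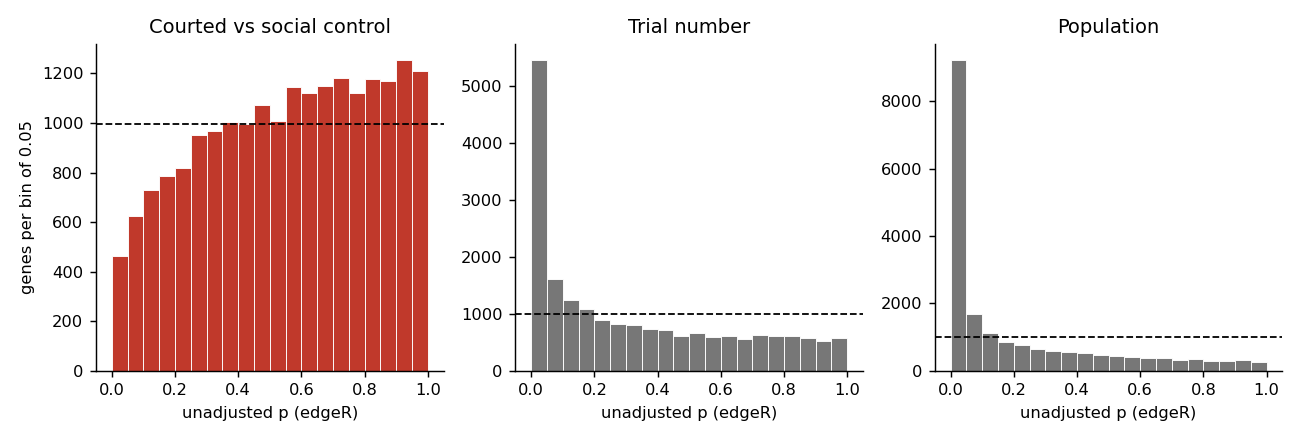
Number of tested genes per bin of unadjusted edgeR p-values (bins of 0.05) for courtship, trial number and population in 1 model of 51 libraries, with a dashed line at an even spread and a separate vertical scale in each panel. For courtship the first bin holds 462 genes and the last 1208, while the first bin holds 5459 genes for trial number and 9241 for population.

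The same order appeared in a partial share of variance in log2 CPM (each count divided by its TMM-scaled library total), given here as a description. For each gene and term it is the share taken of the variance that the other terms had left, not of all variance. Courtship took a median of 0.708% per gene with 1 degree of freedom, and over 10% in 245 genes (1.23%). Trial number, also with 1 degree of freedom, took a median of 3.01% and passed 10% in 4482 genes (22.5%). Population, with 2 degrees of freedom, took 10.9% and passed 10% in 10575 genes (53%). The largest share that courtship took in any gene was 31%, against 67.5% for trial number and 91.8% for population. A term without effect also takes some share, and that level is not given here, so genes over 10% are not calls.

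Courted females were sampled at lower trial numbers than social controls, 44.2 ± 24.1 (SD, n = 33) against 57.3 ± 24.8 (SD, n = 18; two-sided permutation test within populations, p = 0.0446). Median trial numbers of courted and control females were 65.5 and 85.5 (Paxton benthic), 38.5 and 42 (Paxton limnetic), and 38 and 49 (Priest limnetic). With trial number left out of the model, 870 genes were under an unadjusted 0.05 for courtship in place of 462, and edgeR again called 0, with a smallest adjusted p-value of 0.965. Total counts were 23849743 to 45778325 in courted females (median 38740869) and 33930192 to 52788436 in social controls (median 39435697.5), and their means did not differ beyond the spread (permutation test, p = 0.29).

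For most genes the data bounded the pooled courtship difference closely. The bound holds for the difference over all populations and both kinds of male, not for 1 population or 1 kind. Changes of opposite sign in the populations could cancel in it. The median gene was fitted at a log2 fold change of 0.001, with a median size of 0.04 and a median standard error of 0.07, and the median 95% interval reached 0.15 to either side. Standard errors were derived here from the log2 fold change and F statistic of edgeR's test, and the intervals from these with a t quantile. The intervals are not corrected for the number of genes. The interval lay wholly inside a 2-fold change in 19296 genes (96.8%) and inside a 1.5-fold change in 17562 (88.1%). The bound depended on expression. In the 4985 genes of lowest level (median 1.13 CPM, at most 4.23), 57.2% of intervals stayed inside a 1.5-fold change. In the 4985 genes of highest level (47 CPM and above), 99.5% did. What widens the intervals of the lowest genes, counting error or spread between fish, was not tested.

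**Figure D2:**
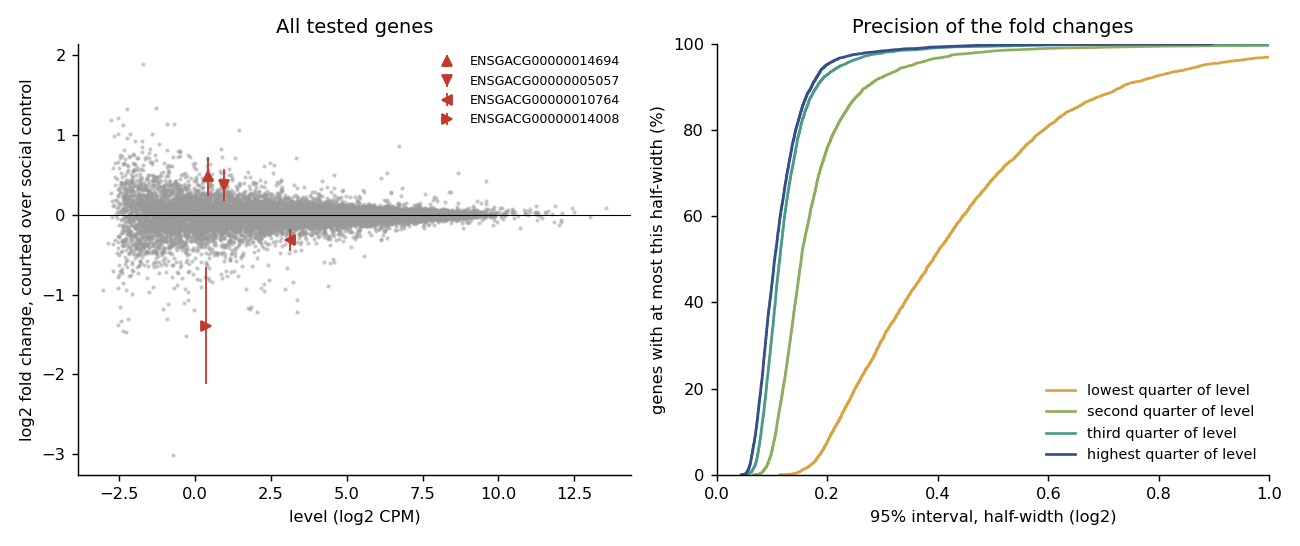
Left, log2 fold change of courted over social control females for each of 19938 genes against level in log2 CPM, with the individually described genes in red with their 95% intervals. Right, the cumulative percentage of genes against the distance from the fold change to the end of its 95% interval (log2), for 4 equal groups of genes by level (172 genes beyond 1 are outside the axis), where the curve of the 4985 lowest genes lies far to the right of the others.

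Fitted changes beyond 2-fold were rare and sat at low counts. There were 33 such genes, 12 higher and 21 lower in courted females, of which 31 were among the 4985 lowest, with a median level of 0.473 CPM. In 9 of the 33 genes (27.3%), 1 library held over 25% of the summed CPM of all 51, which was so in 85 (0.426%) of all tested genes. The median share of the top library was 17.4% in the 33 genes and 2.87% in all genes.

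The groups were also compared by rank, without a model. Within each population every courted female was set against every social control, 198 pairs in all, and for the median gene the courted female had the higher CPM in 50% of pairs. The share ran between 14.6% and 84.6% over the 19938 genes. It passed 75% in 16 and was under 25% in 30 of the 19938 genes. The numbers that unrelated labels would give were not worked out here. These genes and the extremes are therefore not read as a response to courtship. No gene (0 of 19938) separated the courted from the control females in all pairs. Among the 21796 genes with any count, 85 were at 0 in all 18 social controls. The most widely detected of them had counts in 9 of the 33 courted females, and none summed to more than 11 counts. Another 29 were at 0 in all courted females and had counts in at most 5 social controls. A gene of few counts is more easily at 0 in all of 18 females than in all of 33. The 85 and the 29 genes are therefore not compared.

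The genes with the smallest p-values in each direction, 2 and 2, are given with their values to show what the strongest candidates look like. None passed the test, they were chosen for those p-values, and their levels are a description. The files do not say what these genes encode.

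ENSGACG00000010764 had the smallest p-value of all genes. Its level was 5.52 to 10.8 CPM in courted females (median 8, mean 8.04 ± 1.38 SD, n = 33), against 6.01 to 12.6 CPM in social controls (median 9.93, mean 9.84 ± 1.45 SD, n = 18), from 200 to 558 counts per library. The groups overlapped, but 29 of 33 courted females were below the control median, and the courted female was the higher of a pair in 14.6% of pairs. Its log2 fold change was -0.32 (SE 0.07, 95% interval -0.46 to -0.18; edgeR adjusted p = 0.811). Without the filter on low counts it was among the 37 called genes (edgeR adjusted p = 0.0394). With the trial 45 library also left out it was not called (edgeR adjusted p = 0.389). Its log2 fold change was -0.32 in both of these settings. Its top library was the Paxton limnetic social control of trial 51, with 2.84% of its summed CPM.

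The offset of ENSGACG00000010764 was similar in the 3 populations. The gene was chosen by its p-value in these same libraries, so this likeness is a description. In Paxton benthic fish it had 5.52, 7.53 and 10.2 CPM as lowest, median and highest value in courted females, against 6.01, 9.38 and 10.4 CPM in controls. In Paxton limnetic fish these were 6.37, 8.24 and 10.8 CPM in courted females, against 8.88, 9.93 and 12.6 CPM in controls. In Priest limnetic fish they were 6.52, 8 and 9.58 CPM in courted females, against 9.18, 10.4 and 11.5 CPM in controls. Fitted in each population alone, the log2 fold change was -0.30, -0.32 and -0.33 in the same order of populations (SE 0.16, 0.12 and 0.10), with adjusted p-values of 1, 0.999 and 0.864 in edgeR. Of the courted females, 3 of 10, 8 of 12 and 8 of 11 lay below every control of their population. The 2 females left out of the comparison, both courted, had 6.53 (trial 83) and 6.27 CPM (trial 9), given as a description.

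ENSGACG00000014694 was the gene with the smallest p-value among those higher in courted females. It had 0.746 to 2.58 CPM in courted females (median 1.36, mean 1.45 ± 0.363 SD, n = 33), against 0.659 to 2.01 CPM in social controls (median 0.898, mean 1.01 ± 0.343 SD, n = 18), from 25 to 87 counts per library. Of the courted females 31 of 33 were above the control median, and the courted female was higher in 81.8% of pairs. Of the courted females left out of the comparison, that of trial 83 had 0.849 CPM, below the control median, and that of trial 9 had 1.51. The log2 fold change was 0.49 (SE 0.12, 95% interval 0.24 to 0.73; edgeR adjusted p = 1). In single populations it was 0.45 (Paxton benthic), 0.41 (Paxton limnetic) and 0.58 (Priest limnetic; SE 0.20, 0.20 and 0.25; adjusted p = 1, 0.999 and 0.864 in edgeR).

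ENSGACG00000005057, the next gene higher in courted females, showed more overlap. It had 1.34 to 3.31 CPM in courted females (median 1.86, mean 2.02 ± 0.473 SD, n = 33) and 0.827 to 2.5 CPM in social controls (median 1.57, mean 1.68 ± 0.453 SD, n = 18). Its log2 fold change was 0.38 (SE 0.10, 95% interval 0.18 to 0.58; edgeR adjusted p = 1). In single populations it was 0.26 (Paxton benthic), 0.24 (Paxton limnetic) and 0.64 (Priest limnetic; SE 0.21, 0.15 and 0.20), and the test of a difference between populations gave an adjusted p-value of 0.969 in edgeR.

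ENSGACG00000014008, the next gene lower in courted females, was high in 1 control library. It had 0 to 1.16 CPM in courted females (median 0.627), against 0.347 to 27.9 CPM in social controls (median 0.664). The Paxton limnetic social control of trial 25 stood at 27.9 CPM (1484 counts), 42 times the control median and 71% of the summed control CPM, while the next control had 1.22. The log2 fold change was -1.39 (SE 0.37; edgeR adjusted p = 1) with that library and -0.05 (adjusted p = 1) without it. In 47% of pairs the courted female was the higher one.

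**Figure D3:**
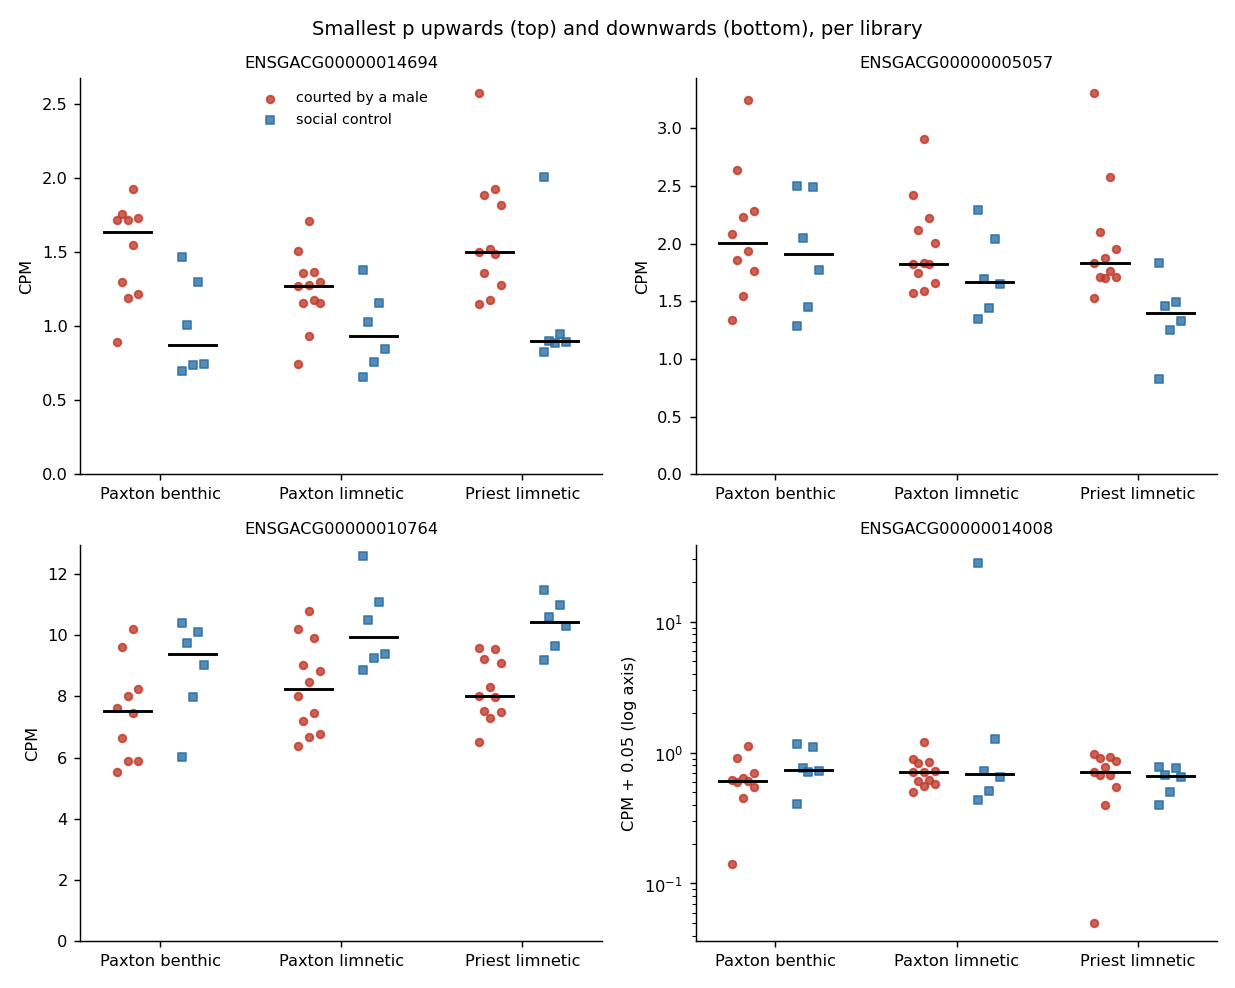
CPM of the genes with the smallest p-values, those higher in courted females above and those lower below, with 1 point per female, courted (red circles) left of social control (blue squares) in each population, and bars at the medians. The axes are linear from 0 except for ENSGACG00000014008, drawn as CPM + 0.05 on a log axis, where 1 Paxton limnetic social control stands at 27.9 CPM.

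The species of the male was pooled in this comparison, and each kind of courtship was also set against the 18 social controls, which the comparisons share. Conspecific courtship (16 females) gave 0 calls in edgeR's test (0%), with 493 genes (2.47%) under an unadjusted 0.05, 218 higher and 275 lower, and a smallest adjusted p-value of 1. Heterospecific courtship (17 females) gave 0 calls in edgeR's test (0%), with 674 genes (3.38%) under an unadjusted 0.05, 404 higher and 270 lower, and a smallest adjusted p-value of 0.126. That last value belonged to ENSGACG00000010764, whose log2 fold change was -0.40 (SE 0.08) against controls for heterospecific and -0.23 (SE 0.08, adjusted p = 1) for conspecific courtship. ENSGACG00000014694 was higher by 0.54 (SE 0.14) and 0.43 (SE 0.14) on the log2 scale for heterospecific and conspecific courtship, and ENSGACG00000005057 by 0.46 (SE 0.11) and 0.27 (SE 0.11). Whether the 2 kinds of courtship differ in these genes was not tested.

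Whether the courtship difference itself differed between populations was tested next. The test of the courtship by population interaction called 0 genes (0%) in edgeR, with 911 genes (4.57%) under an unadjusted 0.05 and a smallest adjusted p-value of 0.267. DESeq2's likelihood ratio test called 4 genes for the interaction, with 1088 under an unadjusted 0.05. In 3 of these 4 genes 1 library held over 25% of the summed scaled counts, and 2 of them, both outside the filtered set, had 74.1% and 83.8% in the Priest limnetic social control of trial 45. The remaining gene, inside the filtered set, had 7.75% in its top library and was at 0 counts in 20 libraries. With 1 population at a time, edgeR called 0 of 19725 genes (0%) for the Paxton benthic fish, where 626 genes (3.17%) were under an unadjusted 0.05. It called 0 of 19795 genes for the Paxton limnetic fish, with 673 (3.4%) under 0.05, and 0 of 19602 for the Priest limnetic fish, with 915 (4.67%). The study did report genes in each population for conspecific courtship against social control, at an adjusted p-value under 0.1 in DESeq2. Its model held treatment, population and their interaction, and kept the kinds of male apart. The 0 calls here pool both kinds of male, add trial number, use edgeR on filtered genes and fit each population alone. The counts are therefore not alike, and which difference matters was not tested.

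Across genes, the courtship fold changes of the 3 populations were weakly or negatively correlated. Over the 19394 genes tested in each population, Pearson's correlation of the courted over control log2 fold changes was -0.087 between Paxton benthic and Paxton limnetic (Spearman -0.149), 0.074 between Paxton benthic and Priest limnetic (Spearman 0.08) and -0.188 between Paxton limnetic and Priest limnetic fish (Spearman -0.209). These populations share no library, but genes are not independent replicates, and the values are descriptions. The share of genes with the same sign was 42.8%, 53.2% and 40.2% in the same order. The signs for the pairs with Paxton benthic fish depended on single libraries, and for the first pair Spearman's sign also depended on trial number. With 1 library left out at a time, Pearson's correlation ranged from -0.133 to 0.011, from 0.006 to 0.125 and from -0.249 to -0.134. Spearman's ranged from -0.209 to 0.02, from -0.134 to 0.17 and from -0.282 to -0.094, and the share of genes with the same sign from 39.5% to 52.5%, from 41.6% to 57.8% and from 37.1% to 46%. For the first pair, Pearson's correlation was 0.011 without the Paxton benthic social control of trial 82, and for the second pair Spearman's was -0.023 (48.1% of the same sign). Without the Paxton benthic social control of trial 39 the first pair had a Spearman correlation of 0.02 and 52.5% of genes with the same sign, and the second pair -0.134 and 41.6%. With trial number left out of the fits, the first pair had a Pearson correlation of -0.019, a Spearman correlation of 0.024 and 51.5% of genes with the same sign. The second pair then had 0.074, 0.114 and 54.2% in the same order, so its signs did not change. Without the Priest limnetic libraries of trials 45, 71 and 72, Pearson's correlation of the second pair was -0.046, with 49.6% of genes of the same sign.

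Of the 19394 genes, 1879 (9.69%) were fitted higher in courted females in all 3 populations and 1636 (8.44%) lower in all 3. The shares that unrelated signs would give are not given here, so these genes are not read as a shared response. No gene (0) had the same sign in all 3 with an unadjusted p-value under 0.05 in each, and 16 of the 19394 had it in at least 2. The number that unrelated fits would give is not given here either, so the 16 are not read as a shared response.

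**Figure D4:**
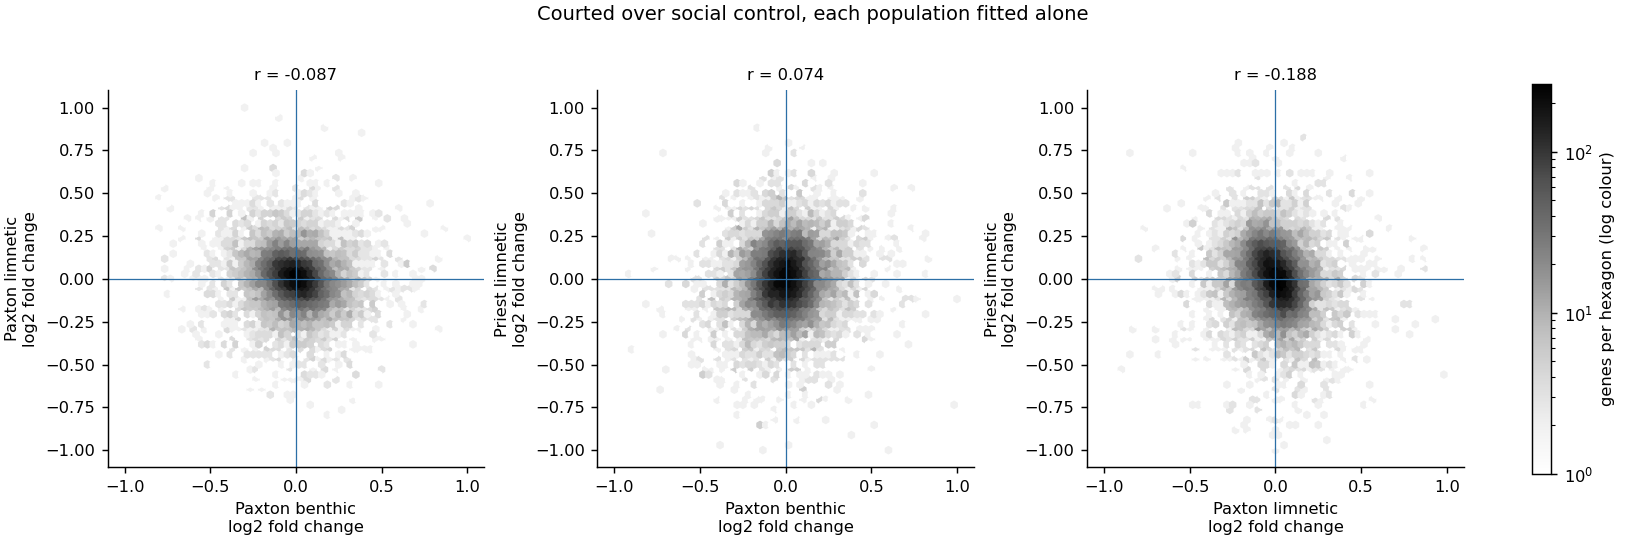
Courted over social control log2 fold changes of 19394 genes, each population fitted alone, for the 3 pairs of populations (Pearson's r -0.087, 0.074 and -0.188). Darker hexagons hold more genes on a log colour scale, and 206, 246 and 256 genes beyond 1 on either axis are outside the panels.

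Courtship also did not separate the libraries on the main axes of variation that remained after population and trial number were removed. On the first principal component of the residual log2 CPM (9.91% of the variance), courted females scored 0.264 ± 18.6 (SD, n = 33) and social controls -0.485 ± 18.6 (SD, n = 18), a difference of 0.749 (two-sided permutation test within populations, p = 0.893, adjusted p = 0.914). On the second (7.44%), courted females scored -2.13 ± 16.5 and social controls 3.9 ± 14.6, a difference of -6.02 (permutation test, p = 0.216, adjusted p = 0.876). Components 3 to 5 took 5.92%, 4% and 3.59% and had adjusted permutation p-values of 0.914, 0.876 and 0.914. Adjusted values cover the 5 components. With the 500 most variable genes the lowest adjusted permutation p-value was 0.269, for the second component (difference 3.96, unadjusted p = 0.0538). With all tested genes and neither population nor trial number removed, the lowest was 0.628. Single Priest limnetic libraries, those of trials 45, 71 and 72, lay at an end of each of components 1 to 5, and at both ends only on component 2. On component 1 the trial 45 control was lowest at -32.6, near the lowest courted female at -29.4.

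**Figure D5:**
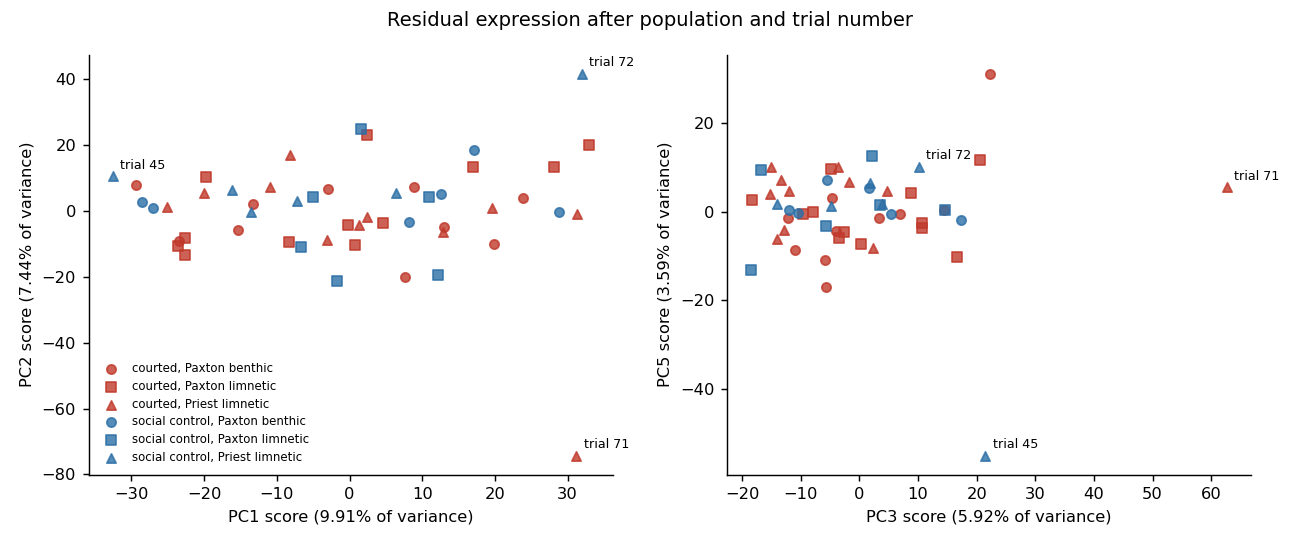
Scores of 51 libraries on principal components 1 and 2 (left) and 3 and 5 (right) of log2 CPM after population and trial number were removed, 1 point per female, courted in red and social control in blue, with symbols for the populations. The colours are mixed over most of both panels, and the scores of -74.3 on the second and 62.7 on the third component belong to 1 courted Priest limnetic female, that of trial 71.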

How the data were processed

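Whole-brain polyadenylated RNA of single females was sequenced as paired reads. The authors checked reads with FastQC 0.11.1, trimmed them with Trimmomatic 0.33, aligned them with BWA 0.7.7 to the stickleback genome of Ensembl, sorted with SAMtools 1.2 and counted reads per gene with bedtools 2.23.0, and the deposited values are these raw counts for 22456 identifiers. Strand use and the handling of reads in overlapping genes are not given in the sources used here. Reads carry no molecular identifiers.

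Counts of 51 libraries were filtered with edgeR's default filter on low counts, which kept 19938 of the 21796 genes with any count, and scaled by TMM. Courtship, population and trial number were fitted with edgeR 4.0.16 in R 4.3.3 (quasi-likelihood F-test), and Benjamini-Hochberg adjustment ran over all tested genes with the threshold of the study, 0.1. DESeq2 1.42.0, the tool of the study, limma 3.58.1 and sva 3.50.0 served as alternatives, and DESeq2 ran without that filter. CPM used TMM-scaled totals, log2 CPM a prior count of 2, and permutation tests 100000 resamples within populations. Scripts were tested on simulated data.

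Samples were grouped by the treatment labels, and each is a separate fish. In 1 Paxton benthic library the title gives trial 89 and the description trial 88, which was used. Since identifiers could not be named, the rule was to print the 2 genes with the smallest p-value in each direction. The members and lists were chosen with earlier results of these data known. Lists of immediate early, hormone and marker genes were prepared but could not be matched to identifiers.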

Additional observations from a re-analysis of the deposited data

Results flagged for a closer look

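A value far from the others was searched for in 90 sets of 5 to 6 values, each 1 measure in 1 population and treatment. The measures were total count, the genes described and the scores on components 1 to 5. Such a value was found in 8 sets. The rule's nominal rate of 5% holds for independent measures drawn without selection. The components and the genes chosen by p-value are not such measures, so the 8 are not set against it. Of the genes described, ENSGACG00000014694 stood at 2.01 CPM in the Priest limnetic social control of trial 29, the next value of that group being 0.951. ENSGACG00000014008 stood at 27.9 CPM in the Paxton limnetic social control of trial 25 (next 1.22) and at 1.08 CPM in the Paxton benthic conspecific female of trial 43 (next 0.645).

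The other 5 were scores of 3 Priest limnetic females on the components of residual expression. The female of trial 71, courted by a heterospecific male, scored -74.3 on the second component (next -4.46) and 62.7 on the third (next 2.34). The social control of trial 72 scored 41.5 on the second (next 10.4). The social control of trial 45 scored -32.5 on the fourth (next -3.65) and -54.9 on the fifth (next 1.19). Without these 3 libraries edgeR again called 0 genes for courtship, with 370 genes under an unadjusted 0.05 and a smallest adjusted p-value of 1, and no component differed between courted and control females (permutation tests, adjusted p = 0.848 for each of 5).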

How the results depend on the processing

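The count of 0 genes for courtship held in 20 of 21 alternatives. Among them were DESeq2, limma-voom, other size factors, other handling of trial number, all 53 libraries, each kind of male and each population. The 20 also include a threshold of 0.05, which could give only 0 once 0.1 gave 0. The setting without trial 72 repeated 1 of the fits that left out 1 library. Settings with 1 kind of male or 1 population held fewer libraries than the main fit. The exception among the 21 was edgeR without the filter on low counts, with 37 calls, of which 36 were outside the filtered set. The count of 0 also held in all 51 fits that left out 1 library, where 399 to 582 genes were under an unadjusted 0.05. The lowest adjusted p-value of these fits was 0.149 in edgeR. Interaction calls were 0 in edgeR's main fit and moved in 3 of 6 alternatives. They were 4 in DESeq2's likelihood ratio test, 1 without the filter and 3 without the libraries of trials 45, 71 and 72. Of these 3 genes, 1 had 84.8% of its scaled counts over the 51 libraries in the Paxton limnetic conspecific female of trial 20. The others had 14.6% and 22.5% in their top libraries, those of trials 71 and 45, which that setting left out. With 1 library left out there were 0 to 2 interaction calls (2 without Priest limnetic heterospecific trial 71, 1 without trial 18). ENSGACG00000010764 ranged from -0.40 to -0.24 in log2 fold change over alternatives and passed only without the filter (adjusted p = 0.0394 in edgeR). ENSGACG00000014694 ranged from 0.39 to 0.58 and ENSGACG00000005057 from 0.24 to 0.64. ENSGACG00000014008 ranged from -2.67 in Paxton limnetic to 0.08 in Priest limnetic fish alone (-0.76 in weighted limma-voom), and -1.48 to -0.05 with 1 library left out. The correlation of fold changes between Paxton benthic and Priest limnetic fish was -0.046 without trials 45, 71 and 72, and that of Paxton benthic with Paxton limnetic fish was -0.133 to 0.011 with 1 library left out. Chosen after the data were seen were a trial slope in each population, the robust quasi-likelihood fit, the settings without trial 72, without trials 45, 71 and 72 and without both the filter and trial 45, and every alternative for the correlations. The causes were not tested. No paired analysis was possible because trial numbers are not shared between the groups. Intervals were widest in the genes under 4.23 CPM, and whether depth sets this was not tested.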

Other observations

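In a search outside the comparison, 119 of the 21097 genes with at least 40 counts had over 50% of their scaled counts in 1 library. The Priest limnetic social control of trial 45 held 75 of these genes and the Paxton limnetic conspecific female of trial 20 held 22. The third library held 3, and the median library 0. Of the 37 genes that edgeR called for courtship without the filter on low counts, 33 had their highest value in the trial 45 library and 34 had over 50% of their scaled counts in 1 library, with a median top share of 81.6%. Which transcripts these are was not tested, since the identifiers carry no names.

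The 2 courted females left out of the comparison had 0.849 (trial 83) and 1.51 CPM (trial 9) of ENSGACG00000014694, and 2.79 and 1.8 CPM of ENSGACG00000005057 in the same order. Of ENSGACG00000014008 they had 0.478 and 0.445 CPM.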
